A study of Homo sapiens with 18 samples.

Results

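The proteasome subunit genes PSMA1 to PSMA7, PSMB1 to PSMB7, PSMB10, PSMC1 to PSMC6, PSMD1 to PSMD14, PSME1 to PSME4 and PSMG1 to PSMG4 were followed in HCT116 cells grown to low and high density. Members were chosen by symbol. PSMB8 and PSMB9 were left out by the same rule, as were 28 rows of pseudogenes and 4 rows of antisense or divergent genes. Of the 43 genes named, 42 had a row among the 38055 genes of the table and all 42 passed the filter on low values. PSMB3 was not analysed here.

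HCT116 is a human colorectal carcinoma line of epithelial type, here wild type (WT), kept in McCoy's 5A medium with fetal bovine serum. Whole cell RNA was taken on day 3 after seeding, at 50% confluency, and on day 5, at 250% confluency, with 3 libraries per day labelled as biological replicates. Ribosomal RNA was removed before library preparation, adapters carried molecular identifiers, and reads were assigned to genes by strand. Since day and density changed together, the time in culture and the crowding of the cells cannot be told apart. A value below is the deposited normalized value of a gene in a library, a level on a scale relative to the other genes of that library. In bulk RNA, fewer cells of a type and less RNA per cell cannot be told apart.

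The proteasome degrades proteins that carry ubiquitin chains. Its 20S core particle is a barrel of outer alpha rings, which gate the channel, and inner beta rings, which hold the proteolytic sites. The 19S particle caps the barrel: its base unfolds substrates with a ring of ATPases, and its lid holds the enzyme that removes the ubiquitin chain. Other activators dock on the same alpha rings, and dedicated chaperones assemble the rings. When proteasome activity falls short, the transcription factor NFE2L1 is known to raise transcription of the subunit genes together.

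Between 27470978 and 56689369 reads fell on genes in each library. Differences were tested with limma on log2(value + 1) over 20129 genes with Benjamini-Hochberg adjustment, and a fold change below is the day 5 minus day 3 difference on that scale. Mitochondrial genes took 6.77 to 7.24% of the summed value on day 3 and 5.46 to 6.13% on day 5. All 6 epithelial markers were detected, with a summed value of 37951 to 56447 on day 3 and 105564 to 106070 on day 5, and 5 of the 6 were higher on day 5. Of 13 markers of fibroblasts, immune cells and endothelium, 11 had a row, and apart from COL1A1, at 483 to 566 on day 3 and 1092 to 1156 on day 5, they reached at most 39.7 (VWF). The immune marker PTPRC reached at most 2.14, and the fibroblast marker DCN was at 0 in 5 of 6 libraries, which allows up to 3 reads in each. The part of these shifts in the results on proteasome genes was not tested. Day 3 replicate 3, the library with the fewest reads, was the highest of its day for 36 of 42 members (28 on the scale of library totals), so counts are also given without it.

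Most proteasome genes were lower in the dense day 5 cultures. Of 42 members, 32 were lower and 2 were higher, PSMD2 and PSMD3, while 8 did not pass the test. The lower calls were 76.2% of the members, against 27.6% of all genes tested, and the higher calls compare with 29.3% of all genes. All day 5 libraries lay below all day 3 libraries for 34 members (81.0%, against 31.7% of all genes). A fall of at least 2-fold was seen in 12 of the 32 (28.6% of members, against 7.6% of all genes), and in 4 (PSMA4, PSMA5, PSMC1 and PSMG3) with the GC content and length correction described below, against 3.09% of all genes in that fit. The median fold change of the members was -0.75 on the log2 scale, and that of all genes was 0.01, with quartiles of -0.49 and 0.53. Without day 3 replicate 3 there were 31 lower and 2 higher calls and a median of -0.71.

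**Figure D1:**
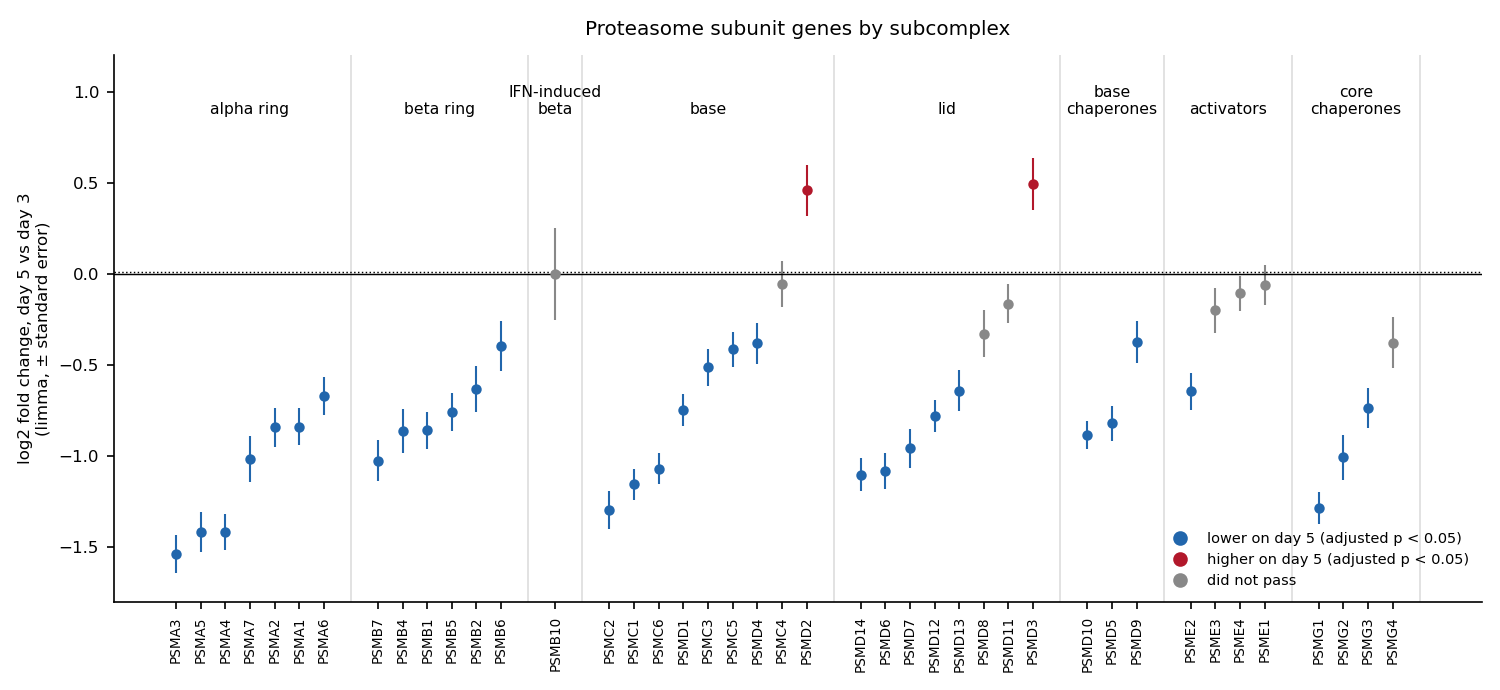
Log2 fold change of day 5 against day 3 (vertical axis) for the 42 proteasome genes, grouped by subcomplex; points are limma estimates, bars are standard errors, and the dotted line is the median of all genes tested. Every alpha and beta ring gene lies below 0, from -1.54 for PSMA3 to -0.40 for PSMB6, and only PSMD2 and PSMD3 were called higher.

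The 42 genes summed to 234597 ± 24477 (SD over 3 libraries) in the day 3 cultures, and to 144408 ± 5155 in those of day 5. As a share of the library it went from 0.638 to 0.674% down to 0.407 to 0.430%, without overlap. The alpha ring genes together kept 0.401 of their day 3 value, the beta ring genes 0.577, the lid genes 0.655, the base genes 0.720 and the activators 0.855. Within the alpha ring, PSMA3, PSMA4 and PSMA5 kept 34.4, 37.3 and 37.2%, and PSMA7 49.1%. PSMA1, PSMA2 and PSMA6 kept 55.9, 55.7 and 62.5%, within the beta ring range of 48.8 (PSMB7) to 75.3% (PSMB6). With the GC content and length correction described below, the median fold changes of the alpha and beta rings were -0.80 and -0.62. The core particle genes were lower on day 5 relative to the 19S genes within each library. The ratio of summed core to summed 19S values was 0.832, 0.783 and 0.844 in the day 3 libraries and 0.572, 0.600 and 0.578 in the day 5 libraries. Within the core, the ratio of alpha to beta ring values was 1.03, 0.971 and 0.947 on day 3 and 0.690, 0.656 and 0.695 on day 5. The lid to base ratio moved less, from 0.853 to 0.875 on day 3 to 0.769 to 0.795 on day 5. These ratios are sums over members and are given without a test.

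**Figure D2:**
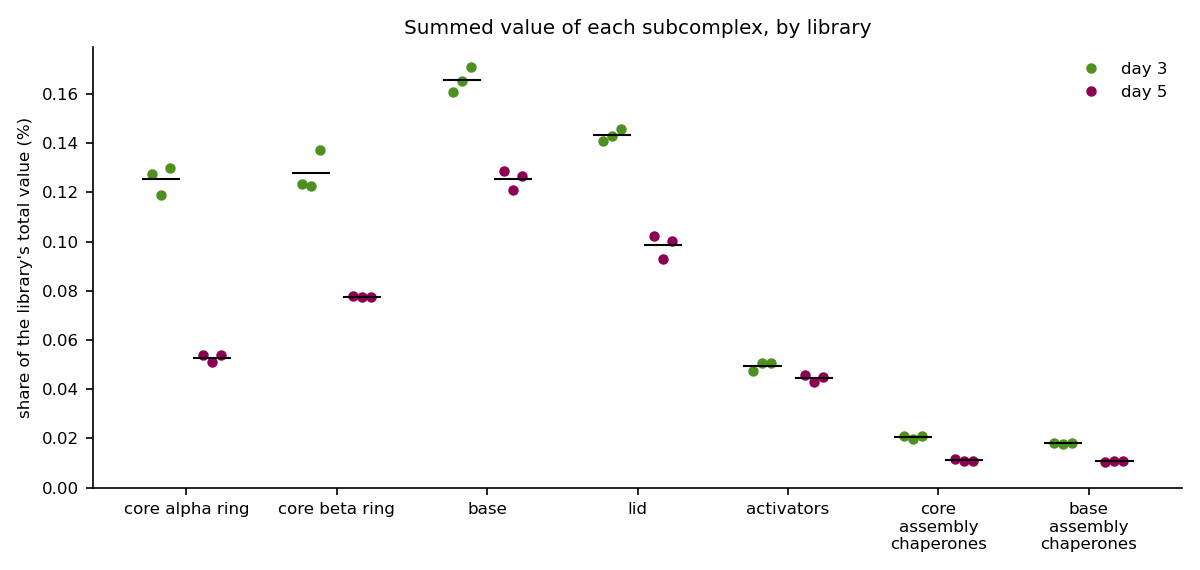
Summed value of each subcomplex as a share of the library's total value in percent (vertical axis, from 0), with 1 point per library, 3 on each day, and a line at the mean. The alpha ring shares are 0.119 to 0.130% on day 3 and 0.0509 to 0.0539% on day 5, while the activators lie at 0.0476 to 0.0508% and 0.0431 to 0.0456%.

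Transcript base composition moved with the fold changes. Across the 42 members, the GC content of the canonical transcript and the fold change had a Spearman rho of 0.642 and a Pearson r of 0.630, and across 19288 tested genes the values were 0.437 and 0.413. Genes share libraries and are not independent replicates, so no test is given. Of the 24 members with a GC content below 50%, 21 were lower and 0 higher, with a median of -0.92 (all genes of that class: 40.0% lower, median -0.24). Of the 18 members at or above 50%, 11 were lower and 2 higher, with a median of -0.39 (all genes: 12.7% lower, median 0.37). In both classes the median of the members lay below that of all genes of like composition. After a correction of each library for GC content and length, chosen after seeing the data, 30 members were lower and 0 higher (25.9% and 24.1% of all genes), with a median of -0.55. The core median was then -0.63 and the 19S median -0.58, against -0.86 and -0.64 without the correction, so the gap between these medians was smaller with the correction. Calls lost were PSMA1, PSMA6, PSMB6, PSMD2 and PSMD3, and PSMD8 was gained. The fold changes of PSMA2, PSMB1, PSMC6 and PSMD6 were also smaller with the correction, at -0.28, -0.48, -0.60 and -0.70 against -0.84, -0.86, -1.07 and -1.08, and stayed called.

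**Figure D3:**
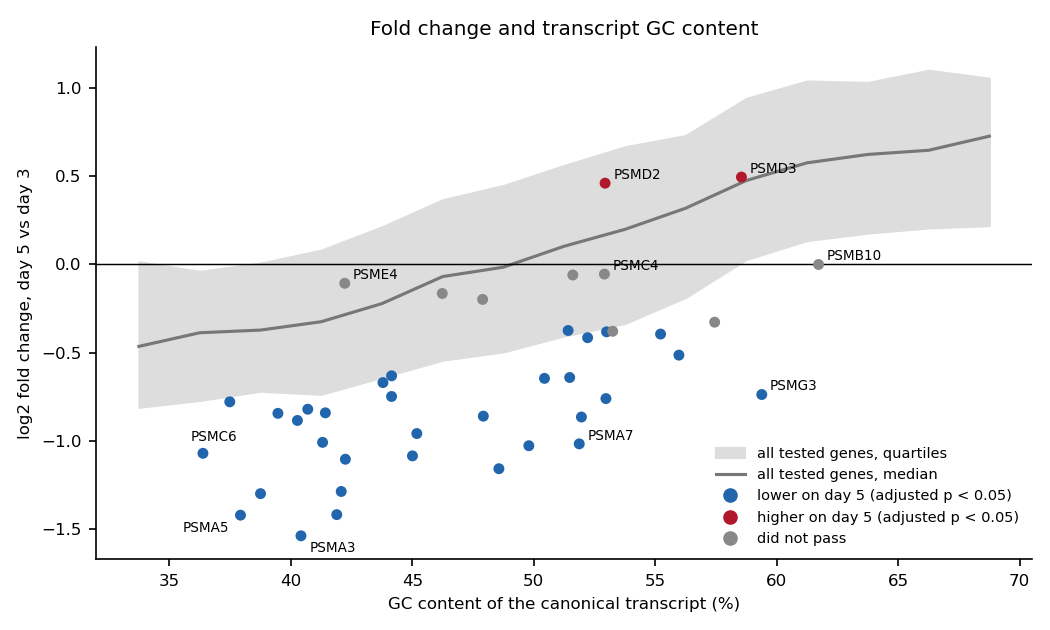
GC content of the canonical transcript in percent (horizontal axis) and log2 fold change of day 5 against day 3 (vertical axis) for the 42 members, coloured by call; the line and band are the median and quartiles of all tested genes in bins of GC content. Most members lie under the line for genes of like GC content, and PSMD2 and PSMD3, the 2 higher calls, have GC contents of 52.9% and 58.5%.

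Promoters were searched since the members moved in large part together. RefSeq (GRCh38.p14) had an entry for 36 of the 42 members, and the 250 bases before each start were read on both strands. Matches of different motifs shared no bases, and the 2 CCAAT matches of PSMD14 overlapped each other. PSMA7, PSMB1, PSMB6, PSMB7, PSMD4 and PSMG3 had no entry. The antioxidant response element core TGACNNNGC, to which NFE2 family factors bind, was found in 9 of 36 member promoters (25%) and in 12% of 11170 promoters of tested genes. Of the 9 genes that held it, 6 were lower, 1 was higher (PSMD3) and 2 did not pass, with a median fold change of -0.65. Of the 27 without it, 20 were lower, 1 was higher and 6 did not pass, with a median of -0.76. Among all genes tested, 27.6% were lower and 29.3% higher. The CCAAT box, the site of the factor NF-Y, was in 15 members (41.7%, against 35.1% of all), and the ETS motif CCGGAAG in 9 (25%, against 15.4%). Of the 15 with a CCAAT box, 12 were lower, 1 was higher and 2 did not pass, with a median of -0.88. Of the 21 without it, 14 were lower, 1 was higher and 6 did not pass, with a median of -0.65. Of the 9 with an ETS motif, 6 were lower and 3 did not pass, with a median of -0.64. Of the 27 without that motif, 20 were lower, 2 were higher and 5 did not pass, with a median of -0.76. The sequences of PSMA3 (chr14:58244593-58244842, plus strand), PSMA5 (chr1:109426449-109426698, minus strand), PSMG1 (chr21:39183452-39183701, minus strand) and PSMD3 (chr17:39980557-39980806, plus strand) are shown 5′ to 3′, 3 from genes that fell more than 2-fold without the GC and length correction and 1 from a gene that was higher. Capitals mark the response element core and the CCAAT box, which reads ATTGG where it lies on the other strand.
PSMA3: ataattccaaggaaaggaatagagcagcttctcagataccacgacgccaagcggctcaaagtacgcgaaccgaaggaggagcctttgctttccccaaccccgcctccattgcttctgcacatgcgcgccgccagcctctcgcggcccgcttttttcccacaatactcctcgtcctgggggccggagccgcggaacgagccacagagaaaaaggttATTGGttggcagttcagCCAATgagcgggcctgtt
PSMA5: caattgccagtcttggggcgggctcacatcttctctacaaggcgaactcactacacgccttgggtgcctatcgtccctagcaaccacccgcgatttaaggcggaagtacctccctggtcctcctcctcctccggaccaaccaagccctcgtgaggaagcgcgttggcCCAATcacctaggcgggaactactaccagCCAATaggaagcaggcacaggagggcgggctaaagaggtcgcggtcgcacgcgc
PSMG1: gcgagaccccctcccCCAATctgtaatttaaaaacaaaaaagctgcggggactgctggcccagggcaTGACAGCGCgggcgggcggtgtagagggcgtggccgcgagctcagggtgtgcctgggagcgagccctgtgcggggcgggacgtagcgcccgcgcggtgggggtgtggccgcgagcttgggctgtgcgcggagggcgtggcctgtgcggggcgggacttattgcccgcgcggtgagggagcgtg
PSMD3: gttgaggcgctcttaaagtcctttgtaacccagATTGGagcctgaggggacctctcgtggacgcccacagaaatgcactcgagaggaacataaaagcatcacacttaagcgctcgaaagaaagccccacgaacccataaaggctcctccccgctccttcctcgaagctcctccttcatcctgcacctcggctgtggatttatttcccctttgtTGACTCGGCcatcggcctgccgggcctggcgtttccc
PSMA3 and PSMA5 each held 2 CCAAT boxes and no response element core, while PSMG1 and PSMD3 each held 1 of both. The CCAAT box was not shared by all genes with large falls. PSMA4 and PSMC1, which fell more than 2-fold with and without the GC and length correction, held neither marked motif. PSMC6 and PSMG2, which fell more than 2-fold without it, held no CCAAT box. The PSMD3 call was lost with the GC and length correction (fold change 0.11, limma adjusted p = 0.429). A link between motifs and the direction of change was not tested. A match is a run of letters and not a site shown to be bound, and the motifs were chosen with the fold changes known.

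All 7 alpha ring genes were lower on day 5, against 27.6% of all genes tested, with a median fold change of -1.02. PSMA3 lies at chr14:58244843-58272012 of GRCh38 on the plus strand, with 11 exons. Its values were 11041, 10359 and 12327 on day 3 and 4127, 3550 and 3939 on day 5. The day 5 libraries were all near a level of 34.4% of the day 3 mean, without overlap, a fold change of -1.54 ± 0.10 (SE, limma adjusted p = 0.000224), at the 1.24 percentile of all genes. PSMA5 and PSMA4 fell by 1.42 each on the log2 scale. With the GC and length correction their fold changes were -1.18 and -1.315, and PSMA4 then had the largest fall of the ring. The smallest fall was that of PSMA6, whose values of 469, 481 and 391 on day 3 and 280, 270 and 289 on day 5 did not overlap (fold change -0.67 ± 0.10, limma adjusted p = 0.00243). With the GC and length correction, PSMA3 had a fold change of -0.87 (limma adjusted p = 0.00154) and PSMA6 one of -0.14 (limma adjusted p = 0.336); over the 15 alternatives the adjusted p of PSMA6 ranged from 1.1e-06 to 0.336. Per kilobase of canonical transcript, PSMA2 and PSMA6 ranked 40 and 39 of 42 on day 3, far below PSMA3 and PSMA7 at ranks 2 and 4. Exons of PSMA1, PSMA2 and PSMA6 overlap another annotated gene on the same strand, where reads may be divided between the genes, as do those of PSMB10, PSMC2, PSMD9 and PSME2. On day 3 the genes that overlap PSMA2, PSMA6, PSMD9 and PSMC2 averaged 8.05, 20.4, 9.00 and 3061, against 554, 447, 260 and 7534 for the members. Without the members that overlap another gene, 26 of 35 were lower (74.3%, against 27.6% of all genes tested). The higher calls were 2, a call that 29.3% of all genes had. The pseudogene rows summed to 0.211% of the members' value, and reads of near-identical copies could be assigned to either.

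The 6 beta ring genes analysed were also all lower, against 27.6% of all genes tested, with a median of -0.81. PSMB5, PSMB6 and PSMB7 carry the proteolytic sites of the standard core. PSMB5, the chymotrypsin-like subunit, had values of 3828, 3984 and 4789 on day 3 and 2502, 2428 and 2474 on day 5. PSMB7, the trypsin-like subunit, went from 7612, 7337 and 9277 to 3807, 3914 and 4108. PSMB6, the caspase-like subunit, went from 3599, 3986 and 5048 to 3221, 3123 and 3164. In none of these genes did the days overlap, although the lowest day 3 value of PSMB6 was close to the day 5 values. The fold changes were -0.76 ± 0.11 for PSMB5 (limma adjusted p = 0.00158), -1.03 ± 0.11 for PSMB7 (limma adjusted p = 0.000679) and -0.40 ± 0.14 for PSMB6 (limma adjusted p = 0.0483). The PSMB6 call passed in 8 of 15 alternatives, with adjusted p from 0.000495 to 0.146, and it was lost without day 3 replicate 2 (0.0869) and without day 5 replicate 1, 2 or 3 (0.101, 0.117 and 0.108). PSMB1, PSMB2 and PSMB4, which have no proteolytic site, had fold changes of -0.86, -0.63 and -0.86.

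PSMB10, the interferon-induced subunit that replaces PSMB7 in the immunoproteasome, was at a very low level. Its values were 29.0, 18.5 and 25.5 on day 3 and 31.5, 24.7 and 17.6 on day 5, from 17 to 33 reads in a library. The days overlapped, and the fold change of -0.0015 ± 0.25 did not pass (limma adjusted p = 0.997). Relative to PSMB7 within a library, the log2 ratio was -7.99, -8.55 and -8.45 on day 3 and -6.87, -7.25 and -7.79 on day 5. It was 1.03 higher on day 5 without overlap (exact permutation p = 0.1, two-sided, the smallest that 3 against 3 allows, 0.2 after adjustment over 4 ratios). With the GC and length correction the fold changes of PSMB10 and PSMB7 were closer to each other, at -0.24 and -0.74. An unnamed gene on the same strand, ENSG00000261884, overlaps PSMB10 and went from 115 to 53.2 on average (log2 fold change -1.10), and reads may be divided between them.

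**Figure D4:**
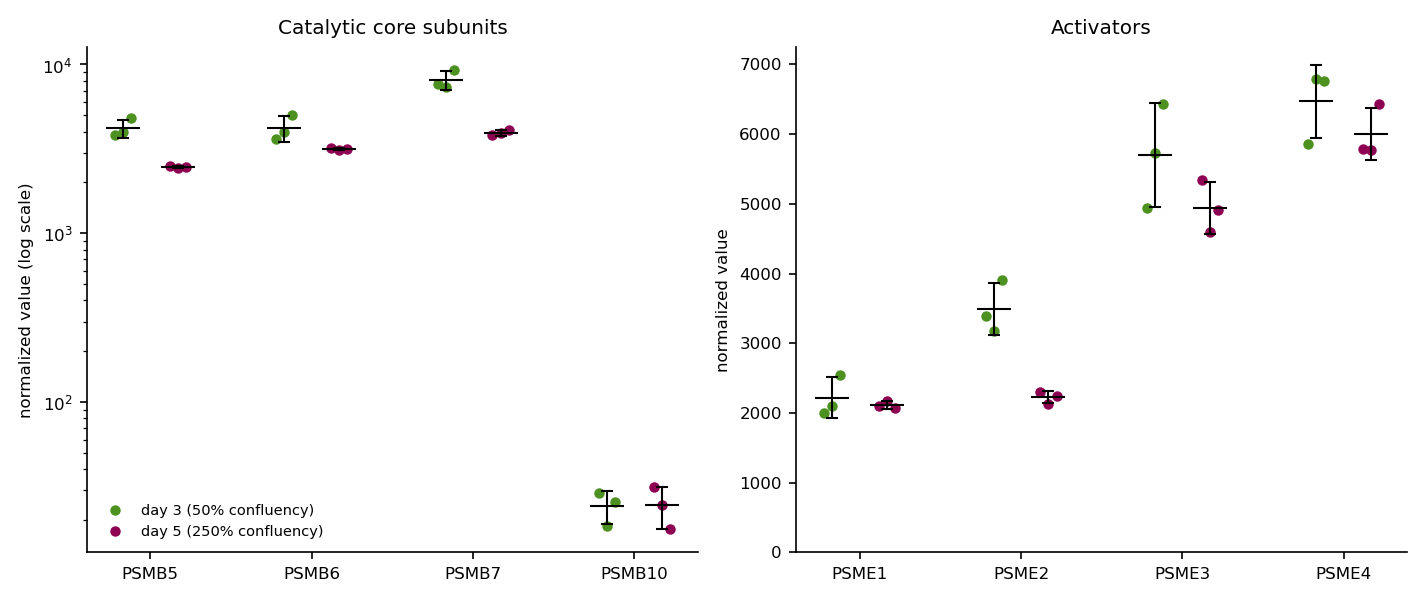
Normalized values in each library (points), with mean and SD of 3 libraries per day (black), for the subunits with proteolytic sites (left, log axis) and for the activators (right, linear axis from 0). PSMB5, PSMB6, PSMB7 and PSME2 are lower in all day 5 libraries, while PSMB10 lies between 17.6 and 31.5 on both days.

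In the base, 7 of 9 genes were lower, 1 was higher and 1 did not pass, with a median of -0.51. Among all genes tested, 27.6% were lower and 29.3% higher. Of the ATPases that form the unfolding ring, PSMC1 to PSMC6, 5 of 6 were lower (median -0.79). PSMC2 had values of 7002, 7029 and 8572 on day 3 and 3107, 2943 and 3100 on day 5. Its fold change of -1.30 ± 0.11 (limma adjusted p = 0.000303) was the largest fall of the base without the GC and length correction. All day 5 values were far below the lowest day 3 value. With the correction PSMC1 had the largest fall of the base, at -1.34, and PSMC2 had a fold change of -0.96. PSMC4 had values of 2814 to 3796 on day 3 and 2995 to 3272 on day 5, which overlapped (fold change -0.06, limma adjusted p = 0.725). The scaffold subunit PSMD1 had a fold change of -0.75. PSMD4, a receptor for ubiquitin chains, had values of 5370, 5655 and 6904 on day 3 and 4564, 4462 and 4648 on day 5. The days did not overlap, with a fold change of -0.38 ± 0.11 (limma adjusted p = 0.0291). Its call passed in 10 of 15 alternatives, with adjusted p from 0.000171 to 0.111, and was lost without day 3 replicate 2 (0.0558) or day 5 replicate 1, 2 or 3 (0.0753, 0.0852 and 0.0668).

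PSMD2, the other large scaffold of the base, which docks shuttle receptors and the deubiquitinase USP14, ran the other way. It lies at chr3:184299198-184309050 on the plus strand. Its values were 7138, 8334 and 10069 on day 3 and 11513, 11038 and 12237 on day 5. Every day 5 library was above every day 3 library, and the fold change was 0.46 ± 0.14 (limma adjusted p = 0.0320). Per kilobase it moved from rank 19 to rank 7 of the 42 members. The call passed in 8 of 15 alternatives, with adjusted p from 0.000111 to 0.129: it was lost without a filter (0.105), with the GC and length correction (0.129), and without any single library other than day 3 replicate 3 (0.0625 to 0.0926).

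In the lid, 5 of 8 genes were lower, 1 was higher and 2 did not pass, with a median of -0.71. Among all genes tested, 27.6% were lower and 29.3% higher. With the GC and length correction 6 were lower and 0 higher, with a median of -0.57. The base median was then -0.60, so the order of the lid and base medians changed with the correction. PSMD14, the metalloprotease that takes ubiquitin chains off substrates, had the largest fall of the lid without the correction. With it PSMD6 had the largest, at -0.70. The PSMD14 results follow. PSMD14 values went from 9831, 9775 and 11283 to 4740, 4632 and 4977, a fold change of -1.10 ± 0.09 without overlap (limma adjusted p = 0.000308), and one of -0.64 with the GC and length correction. PSMD6, PSMD7, PSMD12 and PSMD13, structural subunits of the lid, had fold changes of -1.08, -0.96, -0.78 and -0.64. PSMD8 had a fold change of -0.33 without overlap (limma adjusted p = 0.0734), and PSMD11 one of -0.17 with overlap (limma adjusted p = 0.231).

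PSMD3, a scaffold subunit of the lid, was higher on day 5. Its values were 2737, 3239 and 3880 on day 3 and 4752, 4269 and 4729 on day 5. The days did not overlap, and the fold change was 0.49 ± 0.14 (limma adjusted p = 0.0267). The call passed in 9 of 15 alternatives, with adjusted p from 4.7e-05 to 0.429: it was lost without a filter (0.0911), with the GC and length correction (0.429), and without day 3 replicate 1 or 2 (0.0510 and 0.0713) or day 5 replicate 1 or 3 (0.0776 and 0.0764).

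The chaperones that assemble the base, PSMD5, PSMD9 and PSMD10, bind the ATPases before the base is complete and leave afterwards. All 3 were lower, a call that 27.6% of all genes tested had. PSMD10, also known as gankyrin, had values of 2096, 2130 and 2255 on day 3 and 1127, 1208 and 1175 on day 5, and a fold change of -0.88 ± 0.08 (limma adjusted p = 0.000341), which was -0.34 with the GC and length correction. PSMD9 was at a lower level, with values of 255, 236 and 291 and then 185, 196 and 220, and a fold change of -0.37 ± 0.11 (limma adjusted p = 0.0317). Neither gene had overlapping days. The PSMD9 call passed in 10 of 15 alternatives, with adjusted p from 0.00804 to 0.117, and was lost without day 3 replicate 1 (0.0648) or 3 (0.0623) and without day 5 replicate 1 (0.0982) or 2 (0.0899).

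The chaperones of the core, PSMG1 to PSMG4, guide formation of the alpha ring in pairs, PSMG1 with PSMG2 and PSMG3 with PSMG4. In all 4 the day 5 values lay below the day 3 values, as in 31.7% of all genes tested. The lower call was made for 3 of them, and for 27.6% of all genes tested. PSMG1 went from 2960, 2951 and 3143 to 1286, 1133 and 1297 (fold change -1.29 ± 0.09, limma adjusted p = 0.000225). Its partner PSMG2 went from 2058, 1833 and 2437 to 1015, 1013 and 1098 (fold change -1.01 ± 0.12, limma adjusted p = 0.000962). Neither gene had overlapping days, and with the GC and length correction the fold changes were -0.85 for PSMG1 and -0.39 for PSMG2, under 2-fold for both. In the other pair, PSMG3 went from 1292, 1349 and 1583 to 913, 800 and 815 (fold change -0.74 ± 0.11, limma adjusted p = 0.00209). With the GC and length correction its fold change was -1.01 (limma adjusted p = 0.000548), the largest fall of the 4 in that fit. PSMG4 had values of 802, 770 and 1046 on day 3 and 697, 688 and 611 on day 5 (fold change -0.38 ± 0.14, limma adjusted p = 0.0604).

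Of the 4 activators, PSME2 was lower (25%, against 27.6% of all genes tested) and the others did not pass. The median fold change was -0.15, against -0.86 for the core particle genes. With the GC and length correction these medians were closer, at -0.23 and -0.63. PSME1 and PSME2 form the ring of the cytosolic activator, which interferon induces. PSME1 had values of 1997, 2106 and 2552 on day 3 and 2104, 2174 and 2068 on day 5, which overlapped (fold change -0.06 ± 0.11, limma adjusted p = 0.663). PSME2 went from 3398, 3180 and 3911 to 2298, 2134 and 2249, without overlap (fold change -0.65 ± 0.10, limma adjusted p = 0.00254, and -0.35 with the GC and length correction). The levels of the partners were closer on day 5. The log2 ratio of PSME1 to PSME2 was -0.77, -0.59 and -0.62 on day 3 and -0.13, 0.03 and -0.12 on day 5. It was 0.58 higher without overlap (exact permutation p = 0.1, two-sided, 0.2 after adjustment). PSME2 overlaps the microRNA gene MIR7703 on the same strand.

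PSME3 forms the nuclear activator ring and PSME4 is a single large activator also known as PA200. PSME3 had values of 4935, 5725 and 6433 on day 3 and 5337, 4589 and 4906 on day 5. PSME4 had values of 5864, 6791 and 6758 and then 5792, 5775 and 6429. The days overlapped in both genes, and neither fold change passed (-0.20 ± 0.12, limma adjusted p = 0.215, and -0.11 ± 0.10, limma adjusted p = 0.378). Their ratios within a library overlapped between days, with a difference of -0.14 for PSME3 to PSME1 (exact permutation p = 0.3, two-sided, 0.4 adjusted) and 0.09 for PSME4 to PSME3 (exact permutation p = 0.4, two-sided, 0.4 adjusted). The summed activators amounted to 0.190, 0.211 and 0.189 of the summed core genes on day 3 and to 0.346, 0.336 and 0.343 on day 5. These sums were not corrected for GC content and length.

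On a per kilobase scale, the most abundant members on day 3 were PSMB1 at 12127, PSMA3 at 11772 and PSMB4 at 10766, and the least abundant was PSMB10 at 24.9. On day 5 PSMB1 and PSMB4 stood at ranks 1 and 2 and PSMA3 at rank 4. The members that gained most places were PSMD3, from 30 to 17, and PSMD2, and PSMA4 went from 17 to 27. These levels rest on the length of 1 canonical transcript per gene.

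The other genes of the pathway moved in both directions. Of 12 associated and assembly factors, 4 were lower, 5 were higher and 3 did not pass, with a median fold change of 0.07. The lower share of these 12 was 33.3%, while of all genes tested 27.6% were lower and 29.3% higher. POMP, which drives maturation of the beta rings, had values of 8844, 8453 and 10207 on day 3 and 3244, 3120 and 3384 on day 5, a fold change of -1.49 ± 0.10 (limma adjusted p = 0.000218). SEM1, a small subunit of the 19S lid, had a fold change of -1.12. With the GC and length correction the fold changes were -0.84 for POMP and -0.38 for SEM1, both still called. At the other end of the list, AKIRIN2, which helps to carry proteasomes into the nucleus, went from 586, 673 and 627 to 1079, 1071 and 1109 (fold change 0.79 ± 0.08, limma adjusted p = 0.000595). In both POMP and AKIRIN2 the days did not overlap, in opposite directions. Of the other higher calls, PSMF1 was lost with the correction (fold change 0.55 without it and 0.16 with it). ECPAS passed in 7 of 15 alternatives (limma adjusted p = 0.0408, and 0.00394 to 0.501 over them) and was lost without any single library other than day 3 replicate 3 (0.0935 to 0.120). USP14 passed in 10 of 15 (limma adjusted p = 0.0222, and 0.000977 to 0.117 over them) and was lost without day 3 replicate 1 (0.0524) or 2 (0.0578) or day 5 replicate 2 (0.0614) or 3 (0.0746).

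NFE2L1 itself was higher on day 5. Its values were 3549, 4235 and 4270 on day 3 and 8562, 8401 and 8555 on day 5, a fold change of 1.09 ± 0.10 without overlap (limma adjusted p = 0.000393). With the GC and length correction its fold change was at the low end of the 15 alternatives, 0.60, with adjusted p from 1.8e-34 to 0.0048 over them. Of the enzymes that process the NFE2L1 protein, VCP, which extracts it from the endoplasmic reticulum, was higher (fold change 0.64, limma adjusted p = 0.0068). NGLY1, which removes its sugars, had a fold change of 0.30 (limma adjusted p = 0.0561), and DDI2, which cleaves it, one of 0.23 from values of 1956, 2284 and 2245 to 2529, 2524 and 2513 (limma adjusted p = 0.0715). Of these 4 genes, 2 were called higher, a call that 29.3% of all genes tested had. NGLY1 passed in 6 of 15 alternatives, with adjusted p from 0.0037 to 0.183. Among them were the fit without day 3 replicate 3 (limma adjusted p = 0.0271) and the GC and length correction (fold change 0.61, limma adjusted p = 0.00386). DDI2 passed in 4 of 15, and with the correction its fold change was 0.03 (limma adjusted p = 0.799).

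Among 9 ubiquitin genes, activating enzymes and shuttle receptors, 2 were lower, 3 were higher and 4 did not pass, with a median of -0.06. RPS27A, which encodes ubiquitin fused to a ribosomal protein, went from 44666, 41345 and 57859 to 19900, 20327 and 20773 (fold change -1.22 ± 0.14, limma adjusted p = 0.000756). The polyubiquitin gene UBB had a fold change of -0.71. With the GC and length correction the fold change of RPS27A was -0.56. UBA1, the main enzyme that activates ubiquitin, went from 4395, 5473 and 6260 to 13530, 13766 and 13668 (fold change 1.36 ± 0.14, limma adjusted p = 0.000550). The shuttle receptors UBQLN2 and UBQLN4 were also higher, with fold changes of 1.15 and 0.61. The correction left UBQLN2 at 1.16 and UBA1 at 0.86, and the UBQLN4 call was lost (fold change 0.15, limma adjusted p = 0.186, and 1.7e-08 to 0.186 over its alternatives). Over the 3 lists together, 6 of 25 genes were lower (24%, against 27.6% of all genes tested). The higher calls were 10, a call that 29.3% of all genes had. With the GC and length correction, the counts lower and higher were 5 and 3 of the 12 associated factors, 0 and 3 of the NFE2L1 axis, and 2 and 2 of the 9 ubiquitin genes. Of all genes in that fit, 25.9% were lower and 24.1% higher.

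**Figure D5:**
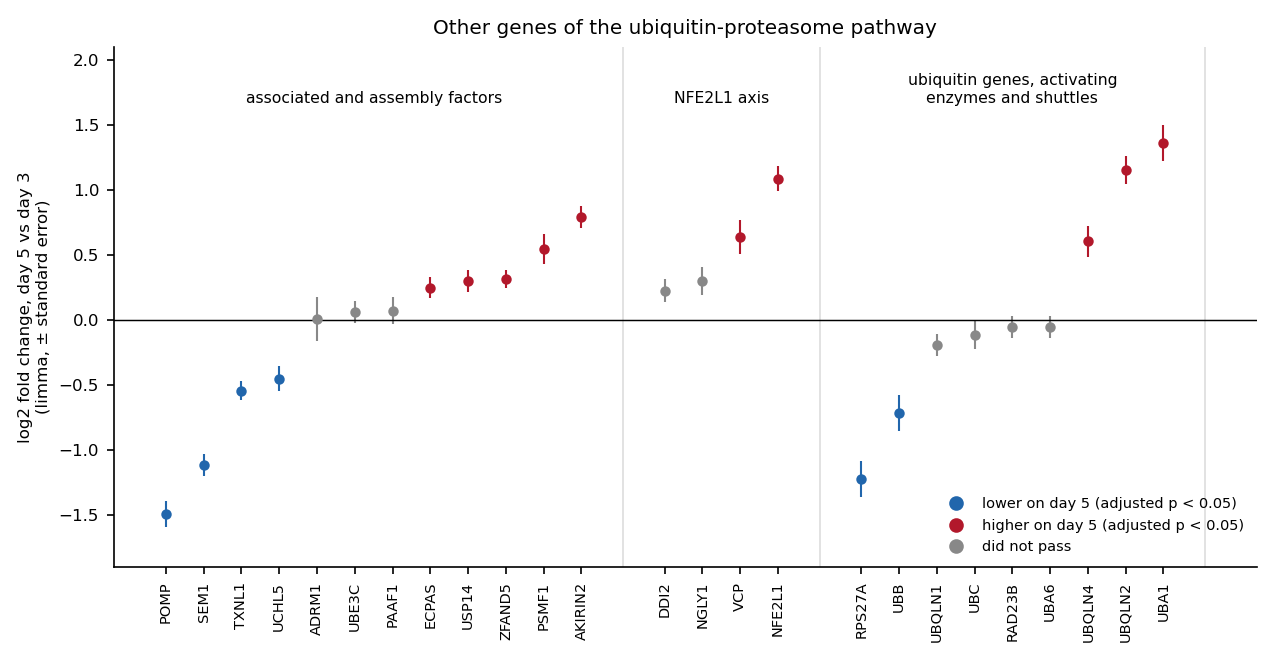
Log2 fold change of day 5 against day 3 (vertical axis) for 25 other genes of the ubiquitin-proteasome pathway in 3 lists; points are limma estimates and bars standard errors. POMP at -1.49 and RPS27A at -1.22 lie lowest, and UBA1 at 1.36 and NFE2L1 at 1.09 are among the highest.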

How the data were processed

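Whole transcriptome RNAseq of WT HCT116 cells was analysed for day 3 and day 5, with 3 libraries per day grouped by their labels. According to the methods and processing notes, the authors checked reads with FastQC 0.11.8 and MultiQC 1.7, mapped them strand-specifically to annotated genes of hg38 and normalized by TMM in CLC Genomics Workbench. The deposited table holds a normalized signal for each gene and library. In each library 100% of the values came out as whole reads (tolerance 0.1 reads). The recovered depth ran from 27470978 to 56689369 per library. Intervals and floors would cover counting error only. The table also holds the authors' own fold changes and p-values, which were not used, and miRNA tables were not used.

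limma 3.58.1 in R 4.3.3 was fitted to log2(value + 1) for 20129 genes that reached 10 in 3 or more libraries, without a replicate term, with Benjamini-Hochberg adjustment over all of them and a threshold of 0.05. The log2 scale understates changes of weakly expressed genes. This test was planned for normalized values. edgeR 4.0.16 and DESeq2 1.42.0 were run on the recovered reads as alternatives and called 12280 and 11110 genes. Ratios of paralogs were compared by exact permutation tests. The fit was tested on simulated data.

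Members and lists were chosen with earlier results of these data known. Values in every library are given for the subunits with proteolytic sites, the activators, PSMD4, PSMD14, the core chaperones, the genes with the highest and lowest fold change of each subcomplex or list, and NFE2L1 and POMP. Some genes of the ubiquitin list are not reported here and are left out of its counts. Other genes, the promoters shown and the calls that change were named after their values were seen. Other alternatives were another scaling (library totals, median-of-ratios size factors), no filter, a replicate block, a variance trend, a pseudocount of 0.1, leaving out each library and a 2-fold minimum. The GC content and length correction, a lowess fit per library over 19288 genes, was chosen after seeing the data. Loci and canonical transcripts came from GENCODE release 44 and promoters from RefSeq, both on GRCh38. Scripts used Python 3.11.15, scipy 1.17.1, numpy 2.4.6, pandas 2.3.3 and, for figures, matplotlib 3.10.9.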

Additional observations from a re-analysis of the deposited data

How the results depend on the processing

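The labels number the replicates of both days, but same-numbered libraries did not deviate together (correlations of -0.011, 0.034 and 0.023), and day 3 replicates 1 and 3 correlated best with day 5 replicates 2 and 1. With the replicate number as a block, 10533 genes were called in place of 11450, with 31 members lower and 2 higher, and PSMB6 was the member call lost. The count of members lower was 32 with library totals (median -0.69), 28 without a filter, 34 with DESeq2, 36 with edgeR and 29 to 31 without single libraries. The calls gained were PSMD8 and PSMG4 with both count tools and PSMD11 (0.0480) and PSME3 (0.0327) with edgeR. With a 2-fold minimum, 3589 genes, 12 members lower and 0 higher remained past both thresholds. The count of members higher was 0 without a filter, 0 with the GC content and length correction and 0 to 2 without single libraries. It was 0 without day 3 replicate 1, day 3 replicate 2, day 5 replicate 1 or day 5 replicate 3, and 1 without day 5 replicate 2. The GC content and length correction also moved the members' median from -0.75 to -0.55, and ADRM1, at 0.01 (limma adjusted p = 0.965), reversed to -0.37 (0.0484, and 0.0484 to 0.987 over its alternatives). The paralog ratios kept their direction under every alternative run. Another scaling between libraries leaves a ratio within a library almost unchanged, so agreement under it was fixed in advance. PSMC5 was lost without a filter (0.0649). Of the 34 member calls, 26 passed in all 15 alternatives. In no case was the cause of a change in call tested. Values are on the authors' TMM scale between libraries, relative to the other genes, so RNA per cell was not measured, and 3 libraries per day limit the precision of small changes. PSMB10, with 17 to 33 reads per library, allows no statement on a small difference. Nothing in the labels beyond the words for biological replicates says that the libraries came from separate cultures, so p-values measure the spread between these libraries.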
